A study of Mus musculus with 3 samples.

Results

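The genes described here are 5 genes of the nuclear lamina and its inner membrane partners, Lmna, Lmnb1, Lmnb2, Lbr and Emd, of 18029 genes in a count table of donor T cells. They were picked by name, and Lmna was picked because its reads rose in CD4+ T cells at the higher dose of cyclosporin A (CSA), so its own changes with dose are given as a description, with no test. The cells came from B6D2F1 mice that were irradiated and given B6 bone marrow, polyclonal B6 T cells and a small number of TEa T cells, which carry a transgenic T cell receptor against a recipient alloantigen peptide. Every recipient therefore carried the same allogeneic graft, and the groups differed in daily treatment: saline, or the calcineurin inhibitor CSA in a dose of 5 or 50 mg/kg. The methods describe both sexes and do not give the age or sex of these 18 animals in the sources used here. Spleens were taken on day 7, the 6 mice of each group were pooled in pairs and marked with hashtag antibodies, donor CD4+ and CD8+ T cells were sorted and mixed, and each group was captured in 1 droplet run. Treatment and capture therefore cannot be told apart, and the replicates are 3 hashtagged pools per group, which shared a capture.

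The nuclear lamina is a meshwork of intermediate filaments under the inner nuclear membrane that gives the nucleus its stiffness and anchors silent chromatin. A-type lamins (lamin A and lamin C) are spliced from Lmna, and B-type lamins are encoded by Lmnb1 and Lmnb2. Lbr encodes the lamin B receptor, an inner membrane protein that binds B-type lamins and heterochromatin, and Emd encodes emerin, an inner membrane protein with a LEM domain that binds A-type lamins. Resting lymphocytes are known for little A-type lamin, which rises on activation.

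The promoter sequences of Lmna are shown because this gene had by far the largest difference between doses among the 5. Those of Lbr and Emd are shown because their fitted changes went in opposite directions, although the Emd rise depended on the scaling (below). Each is the 250 bases before an annotated start in the RefSeq GRCm38.p6 table, printed 5′ to 3′ on the strand of the gene, with capitals for matches on either strand to the core letters of an NFAT site (GGAAA), the transcription factor that calcineurin activates, or of an AP-1 site (TGANTCA); the letters of these motifs cannot overlap. Lmna has 2 windows, at chr3:88503353-88503602 and chr3:88493313-88493562, both on the minus strand and both inside the annotated span of the gene (chr3:88481148-88509932). No window before the outer 5′ end of that span is shown, so the 2 windows do not cover the whole promoter region of Lmna. Lbr has chr1:181842402-181842651 on the minus strand and Emd chrX:74254437-74254686 on the plus strand.
Lmna, first window: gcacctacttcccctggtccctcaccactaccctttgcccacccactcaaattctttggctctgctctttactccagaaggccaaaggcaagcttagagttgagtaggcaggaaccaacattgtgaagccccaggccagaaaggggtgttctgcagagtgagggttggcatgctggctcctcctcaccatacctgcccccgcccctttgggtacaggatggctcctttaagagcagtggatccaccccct
Lmna, second window: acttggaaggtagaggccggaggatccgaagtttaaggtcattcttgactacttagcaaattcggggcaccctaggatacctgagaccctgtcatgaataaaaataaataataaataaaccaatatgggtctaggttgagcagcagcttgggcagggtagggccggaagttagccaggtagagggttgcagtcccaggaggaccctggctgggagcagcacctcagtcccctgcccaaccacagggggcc
Lbr: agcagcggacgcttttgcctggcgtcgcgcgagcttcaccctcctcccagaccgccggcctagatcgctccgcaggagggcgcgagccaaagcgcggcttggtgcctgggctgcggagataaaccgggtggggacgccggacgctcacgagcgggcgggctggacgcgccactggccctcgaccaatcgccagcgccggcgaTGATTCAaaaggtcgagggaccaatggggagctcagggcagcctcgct
Emd: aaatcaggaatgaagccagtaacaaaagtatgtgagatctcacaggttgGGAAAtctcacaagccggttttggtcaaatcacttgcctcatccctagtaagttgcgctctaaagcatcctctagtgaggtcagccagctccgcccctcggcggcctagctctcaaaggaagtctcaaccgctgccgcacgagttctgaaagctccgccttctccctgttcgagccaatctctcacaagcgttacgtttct
Neither Lmna window held the NFAT core or the AP-1 letters, Lbr held 1 AP-1 match and Emd held 1 NFAT core. For comparison, 55.6% of all 32851 windows of this length held the NFAT core and 6.75% the AP-1 letters. These matches describe letters only, and gene counts do not show which start was used.

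The table held 10371 CD4+ cells and 10833 CD8+ cells. Unless stated, the 280 TEa cells were kept apart from the CD4+ sums. Sums per pool held 3994968 to 7592334 UMIs (unique molecular identifiers, each standing for 1 captured RNA molecule) in CD4+ cells and 4392100 to 11454636 in CD8+ cells. Depth moved with dose, with a median of 3097, 4396 and 5979.5 UMIs per CD4+ cell and 4108, 6121.5 and 7183 per CD8+ cell in saline, CSA 5 mg/kg and CSA 50 mg/kg. No Cd8a UMI was in CD4+ cells and no Cd4 UMI in CD8+ cells. Captures shared 218 of 20986 cell barcodes.

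Lmna was close to absent in saline and abundant at CSA 50 mg/kg in both lineages. In CD4+ cells its level in the saline pools was 1.88, 2.54 and 2.62 CPM (UMIs of the gene per 1000000 UMIs, scaled by TMM, a normalization that aligns most genes between pools), and in the CSA 5 mg/kg pools 5.63, 4.05 and 3.84 CPM. At CSA 50 mg/kg it was 172, 205 and 166 CPM. The 3 groups did not overlap, and the high-dose pools stood far above all others. These levels rested on 43, 62 and 3348 Lmna UMIs in the 3 groups. The mean rose from 2.35 ± 0.40 to 181 ± 20.7 CPM (SD, n = 3), a fitted log2 difference of 6.24 ± 0.13 (SE), or 75.5-fold.

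CD8+ cells had the same order at a lower level. Lmna stood at 2.33, 1.61 and 2.18 CPM in saline, at 3.17, 4.67 and 2.79 CPM at CSA 5 mg/kg, and at 104, 107 and 74.5 CPM at CSA 50 mg/kg. Every high-dose pool lay above every other pool, and each CD8+ high-dose pool lay below every CD4+ one, although each lineage was scaled on its own. The fitted difference from saline was 5.54 ± 0.19 on the log2 scale, or 46.5-fold (56 and 2285 UMIs). The difference at the lower dose was 0.89 ± 0.30 in CD4+ and 0.79 ± 0.36 in CD8+ cells, on at most 62 UMIs per group, and after each cell was thinned to 2000 UMIs the CD4+ value was 0.05 ± 0.49.

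**Figure D1:**
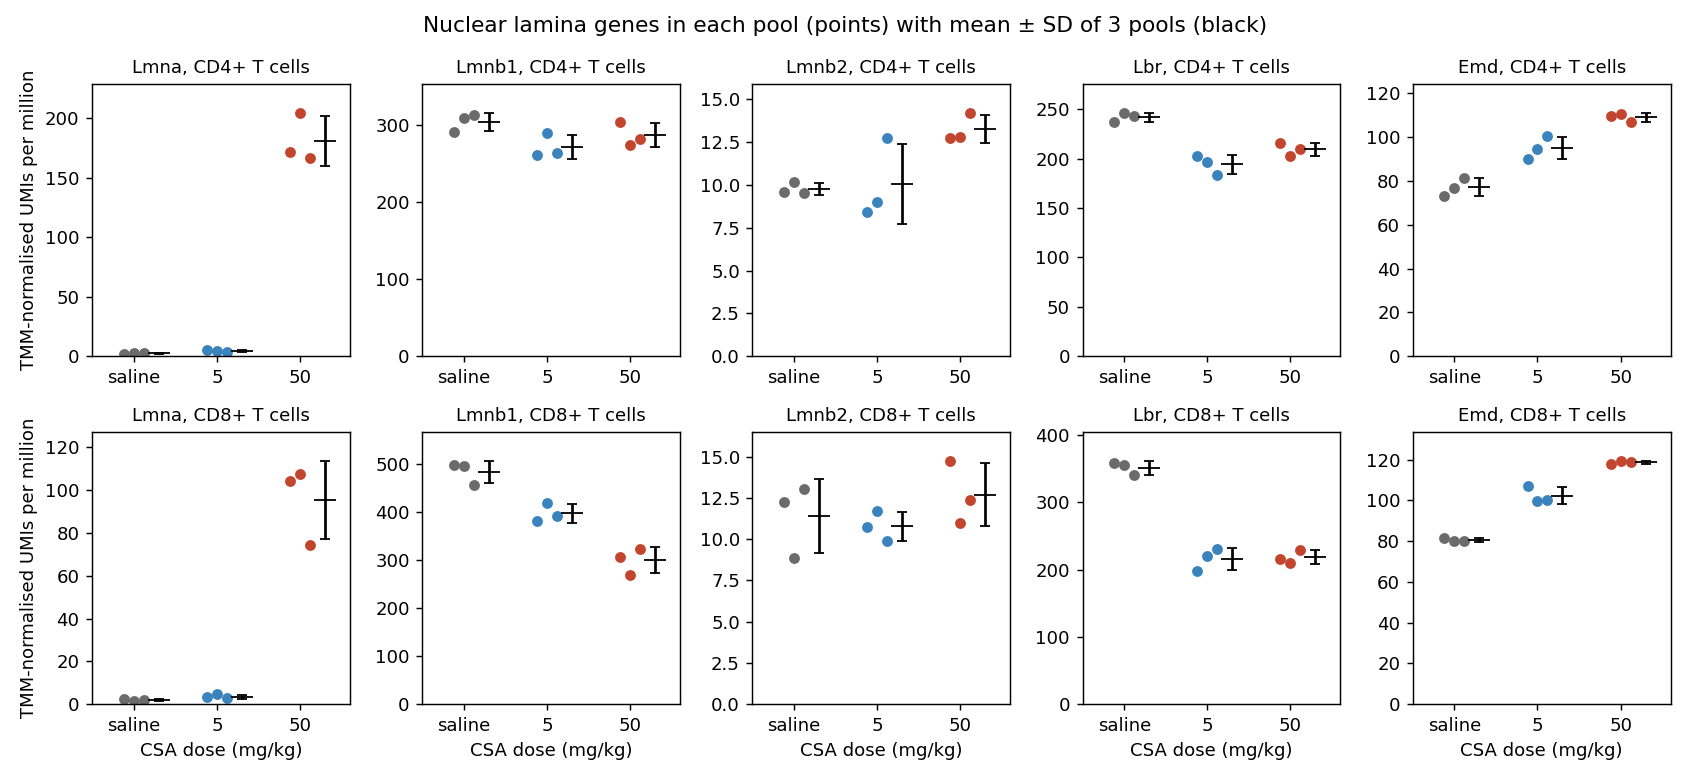
Level of each lamina gene (y axis, TMM-scaled CPM, each panel from 0 on its own scale) by CSA dose in mg/kg (x axis) in CD4+ cells (upper row) and CD8+ cells (lower row); points are the 3 pools of a group and the black marks their mean ± SD. Lmna goes from 1.61 to 2.62 in the saline pools to 74.5 to 205 in the high-dose pools, while the pools of Lmnb2 stay between 8.44 and 14.7.

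Markers of cells that could carry Lmna were summed in the same pools. The sum of the 8-gene stromal and endothelial list was lower at CSA 50 mg/kg, at 17.3 to 20.5 unscaled CPM (per 1000000 UMIs, without TMM) against 72.2 to 90.9 in saline in CD4+ cells and at 6.23 to 10.0 against 44.9 to 47.7 in CD8+ cells, with 4 of the 8 genes, including Col1a2, Pdgfrb and Kdr, at 0 in each lineage at that dose. In CD4+ saline cells Pecam1 was the list's only gene above 0, so the lower CD4+ sum is a fall of Pecam1. In CD4+ cells Col1a1, Col3a1 and Cdh5 went the other way, from 0 in saline to above 0 at CSA 50 mg/kg. The 7-gene myeloid list overlapped between saline (93.6 to 124) and CSA 50 mg/kg (81.3 to 124) in CD4+ cells, and so did the 7-gene dissociation stress list (533 to 602 against 529 to 549). The 5-gene erythroid list was higher, at 27.7 to 36.6 against 3.21 to 14.5 in CD4+ cells and 23.7 to 48.1 against 3.89 to 17.6 in CD8+ cells. Of B cell and plasma cell genes, 5 were summed after the data had been seen (Cd79a, Cd79b, Ms4a1, Pax5 and Jchain). Their sum in CD8+ cells was 21.4 to 26.1 in saline, 21.4 to 80.7 at CSA 5 mg/kg and 200.01 to 334 at CSA 50 mg/kg, where Jchain held 93.1% of the UMIs and Pax5 was at 0. In CD4+ cells the sum was 6.26 to 8.55 in saline and 5.78 to 39.8 at CSA 50 mg/kg. The part of stromal, erythroid or B cell RNA in the results was not tested.

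Cells with a Lmna UMI were counted. Free RNA in the droplets of each capture was not measured, and its part in these shares was not tested. After thinning to 2000 UMIs, Lmna was detected in 0.683% of CD4+ cells in saline, 0.516% at CSA 5 mg/kg and 21.1% at CSA 50 mg/kg (95% exact binomial interval 19.6 to 22.6%, counting error only), with 18.8, 24.3 and 20.2% in the 3 high-dose pools. Without thinning the shares were 0.961, 1.65 and 42.3%. In CD8+ cells the thinned shares were 0.443, 0.543 and 12.1% (11.1 to 13.3%), and the unthinned ones 0.948, 1.80 and 33.1%. Thinning left out 395, 452 and 80 CD4+ cells and 121, 83 and 8 CD8+ cells of the 3 groups. Of 3064 high-dose CD4+ cells, 1768 had no Lmna UMI, 584 had 1 and 712 had 2 or more. The 181 cells with 5 or more, 5.91% of the cells, held 40.4% of the Lmna UMIs, and the highest cell held 23. In CD8+ cells 69 of 3532, or 1.95%, had 5 or more and held 21.0%.

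Lmna was then read in the cell clusters deposited with the data, which were built on the expression of these same cells, so cluster levels are a description. Levels within clusters are unscaled CPM. At CSA 50 mg/kg the highest CD4+ cluster was the TFH cluster C4, at 423, 153 and 179 in the 3 pools on 45 cells. It was followed by cycling effectors C5 (198 ± 44.8, SD over 3 pools), Cd226lo effectors C1 (185 ± 50.5) and regulatory T cells C11 (183 ± 39.1). The naive cluster C9 was lowest, at 39.5, 28.9 and 0. Ranges of neighbours overlapped down the whole CD4+ order except between C10 (Isg15hi, 85.4 ± 41.2, lowest pool 48.0) and C9. In CD8+ cells the exhausted cluster C8 was highest (131 ± 32.2) and the naive cluster C7 lowest (30.5 ± 18.8), and all neighbours overlapped.

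**Figure D2:**
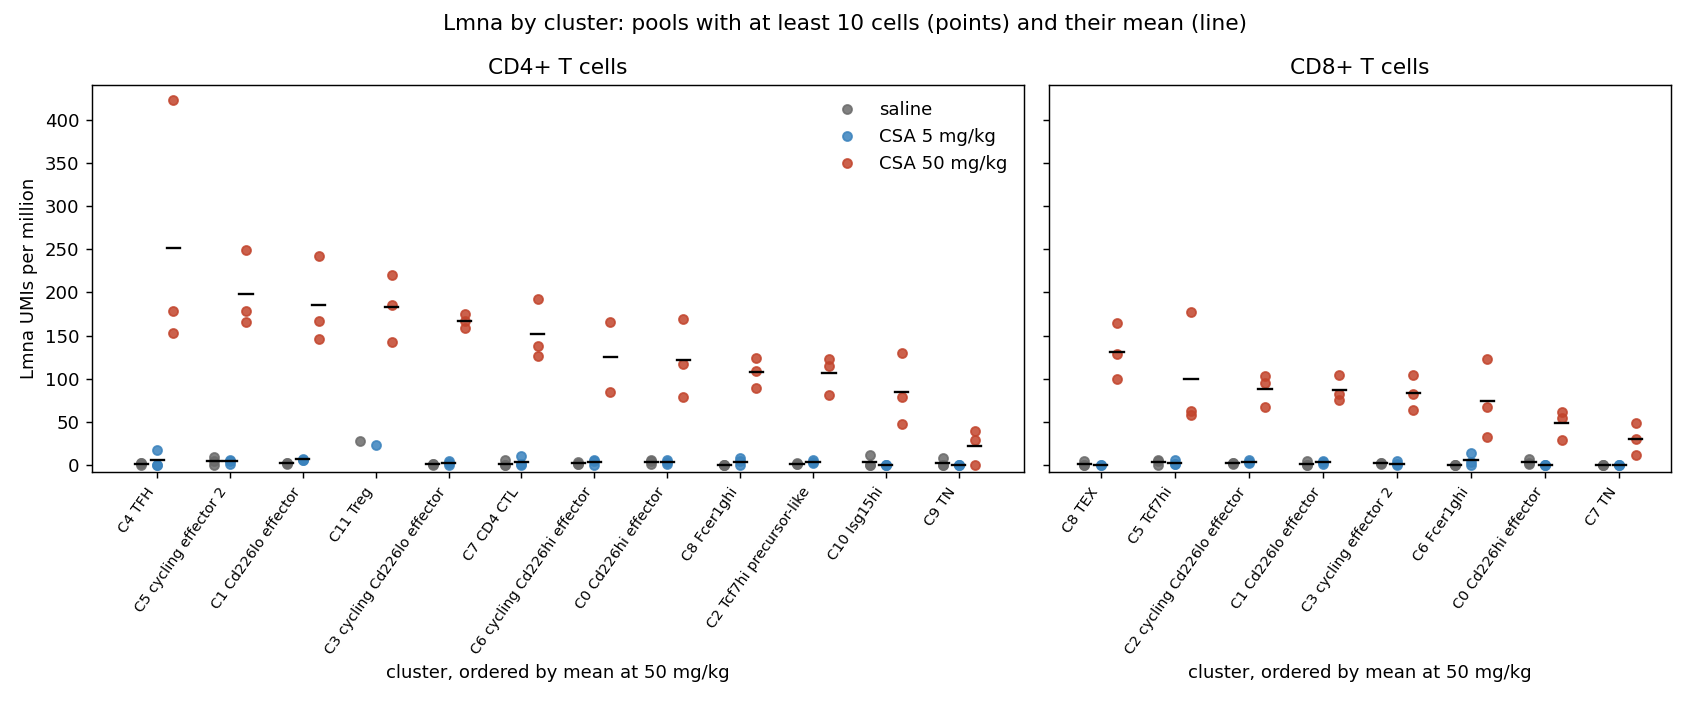
Lmna in the deposited CD4+ and CD8+ clusters with at least 10 cells in 2 or more high-dose pools (x axis, ordered by the mean at CSA 50 mg/kg; y axis, unscaled CPM); points are pools with at least 10 cells, coloured by treatment, and short lines their means. CD4+ C12 and CD8+ C4 are not shown. In each cluster shown the high-dose mean lies above the saline and CSA 5 mg/kg points, and the naive clusters (TN) come last, at high-dose means of 22.8 (CD4+) and 30.5 (CD8+).

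Naive cells, as the study names clusters C9 and C7, were also compared with the rest by share. Thinned to equal depth, 5 of 83 naive CD4+ cells had a Lmna UMI at CSA 50 mg/kg (6.02%, interval 1.98 to 13.5%), against 19.0% of other non-cycling and 26.2% of cycling CD4+ cells. No such cell was found among 54 naive cells in saline, which allows up to 6.60% of cells with a UMI at this depth (upper bound of the same interval) and sets no limit on cells that express the gene. In CD8+ cells the shares were 3.73% (1.38 to 7.93%) in naive, 11.9% in other non-cycling and 13.2% in cycling cells. By pool the naive shares were 10, 7.32 and 0% in CD4+ and 4.35, 6.78 and 0% in CD8+ cells, beside 16.6, 22.05 and 18.4% and 11.4, 14.3 and 9.84% of other non-cycling cells, and the naive ones rested on 5 and 6 cells with a UMI.

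TEa cells were left out of the CD4+ sums, although they shared pools and captures with the other cells, so their Lmna levels are a description as well. In TEa cells Lmna stood at 9.17, 28.8 and 32.5 CPM in the saline pools (1, 7 and 8 UMIs), at 9.55, 0 and 3.40 CPM at CSA 5 mg/kg (2, 0 and 1 UMIs), and at 166, 121 and 165 CPM at CSA 50 mg/kg (17, 6 and 11 UMIs). The high-dose pools lay above all others, and the 8 UMIs of the third saline pool were all in 1 cell. Lmna passed the filter on low counts there through the high-dose pools alone, so no test is given for it. A Lmna UMI was in 6 of 123 saline TEa cells (4.88%, interval 1.81 to 10.3%) and in 15 of 27 at CSA 50 mg/kg (55.6%, 35.3 to 74.5%), at median depths of 3475 and 7188 UMIs; in other CD4+ cells it was in 39 of 4058 and 1296 of 3064. Of the other members in TEa cells, Lmnb1 differed by −0.32 ± 0.25 (adjusted p = 0.414), Lbr by −0.53 ± 0.30 (adjusted p = 0.237) and Emd by 0.23 ± 0.36 (adjusted p = 0.72), and Lmnb2 was too low to test. Of the 36 genes of a wider lamina and envelope list, 22 passed that filter. Apart from the members, 3 of 18 were past the threshold, or 16.7%, where 15.1% of all 3902 genes were: the nuclear basket genes Nup153 (−1.74) and Tpr (−1.14) and the lamin-binding membrane protein gene Tor1aip1 (−1.72), all lower.

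Of the B-type lamin genes, Lmnb1 fell with dose in CD8+ cells. It stood at 498, 495 and 457 CPM in saline, 381, 418 and 392 at CSA 5 mg/kg, and 306, 270 and 324 at CSA 50 mg/kg, with no overlap between groups. The log2 changes were −0.27 ± 0.06 (edgeR adjusted p = 3.40e-04) and −0.69 ± 0.06 (adjusted p = 2.65e-09). The background was wide, since 60.2% of 10841 CD8+ genes passed at the lower dose (29.9% up, 30.3% down) and 74.0% at the higher one (37.1% up, 36.9% down).

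In CD4+ cells the Lmnb1 levels of the groups lay close together, at 291, 308 and 313 CPM in saline, 260, 289 and 264 at CSA 5 mg/kg, and 304, 274 and 281 at CSA 50 mg/kg. The change was −0.15 ± 0.05 at the lower dose (edgeR adjusted p = 0.0126) and −0.08 ± 0.05 at the higher (adjusted p = 0.154). The first call was lost without CSA 5 mg/kg replicate 1 (adjusted p = 0.0655), CSA 5 mg/kg replicate 3 (0.0671) or saline replicate 3 (0.0559), and the second passed without CSA 50 mg/kg replicate 1 (−0.11, adjusted p = 0.0435). Here 51.7% of 10568 genes passed at CSA 5 mg/kg (26.1% up, 25.6% down) and 70.5% at CSA 50 mg/kg (34.7% up, 35.8% down).

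Lbr fell in both lineages, more in CD8+ cells. In CD8+ pools it stood at 359, 355 and 340 CPM in saline, 198, 220 and 230 at CSA 5 mg/kg, and 216, 210 and 230 at CSA 50 mg/kg. Every saline pool lay above every treated pool, and the treated groups overlapped. The change was −0.69 ± 0.05 at each dose (edgeR adjusted p = 1.76e-09 and 5.08e-10). In CD4+ pools Lbr stood at 237, 246 and 243 CPM in saline, 203, 196 and 183 at CSA 5 mg/kg, and 216, 203 and 209 at CSA 50 mg/kg, with changes of −0.31 ± 0.05 (adjusted p = 1.21e-05) and −0.20 ± 0.04 (adjusted p = 5.32e-04).

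Emd rose in both lineages under TMM scaling. Its CD4+ levels were 73.2, 77.0 and 81.4 CPM in saline, 90.0, 94.8 and 100.4 at CSA 5 mg/kg, and 110, 111 and 107 at CSA 50 mg/kg, and its CD8+ levels 81.7, 80.2 and 79.9, then 107, 99.6 and 100.2, then 118, 119 and 119. The groups were ordered by dose with no overlap in either lineage. The log2 changes were 0.32 ± 0.06 and 0.51 ± 0.06 in CD4+ cells (edgeR adjusted p = 1.33e-04 and 7.77e-08) and 0.35 ± 0.05 and 0.55 ± 0.05 in CD8+ cells (adjusted p = 8.84e-06 and 6.25e-09). These calls depended on the scaling. With library size in place of TMM, which shifted the median of all genes by −0.37 and −0.45 in CD4+ and −0.43 and −0.53 in CD8+ cells, the Emd values at CSA 5 mg/kg were −0.040 and −0.075 and those at CSA 50 mg/kg 0.068 and 0.024, and none passed. The Lmna differences at CSA 50 mg/kg were 5.80 and 5.01 on that scale, and Lmnb1 fell in CD4+ cells as well (−0.51, adjusted p = 4.56e-09).

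Lmnb2, the other B-type lamin gene, gave few UMIs in every group. Its CD4+ level was 9.62, 10.1 and 9.56 CPM in saline and 12.8, 12.8 and 14.2 at CSA 50 mg/kg, a change of 0.45 ± 0.15 (edgeR adjusted p = 0.0123) that did not pass with DESeq2 (adjusted p = 0.0574). The size of this change was that of the shift of −0.45 in the median of all CD4+ genes with library size, so the rise depended on TMM scaling. At CSA 5 mg/kg the CD4+ pools (8.44, 8.99 and 12.7) spanned the saline ones, with a change of 0.09 ± 0.17 (adjusted p = 0.684). In CD8+ cells the changes were −0.08 ± 0.16 (adjusted p = 0.712) and 0.15 ± 0.15 (adjusted p = 0.351), within the spread of pools from 8.85 to 14.7 CPM.

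The lineages also differed without CSA. In saline Lmnb1 was 0.76 ± 0.04 higher on the log2 scale in CD8+ than in CD4+ cells of the same pools (edgeR with pool as a block, adjusted p = 1.13e-13) and Lbr 0.63 ± 0.04 higher (adjusted p = 2.20e-11), where 40.1% of all genes passed. Emd was 0.15 ± 0.05 higher (adjusted p = 0.0275), a call that was lost without saline replicate 1 or saline replicate 2 and with DESeq2. Lmnb2 differed by 0.30 ± 0.16 (adjusted p = 0.149), and passed without saline replicate 2 (adjusted p = 0.0487). Lmna differed by −0.15 ± 0.33. The change at CSA 50 mg/kg was lower in CD8+ than in CD4+ cells for Lmnb1 by −0.65 ± 0.06 (adjusted p = 2.42e-08) and for Lbr by −0.52 ± 0.06 (adjusted p = 2.36e-06), where 19.3% of all genes passed. For Emd the difference of the changes was 0.02 ± 0.07 (adjusted p = 0.915), for Lmnb2 −0.33 ± 0.22 (adjusted p = 0.342), and for Lmna, as a description, −0.74.

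Lmnb1 and Lbr were highest in cycling cells, so they were read apart in the cycling clusters and in the rest. In saline Lmnb1 was highest in the cycling Cd226hi effectors of each lineage, at a mean of 886 unscaled CPM in CD4+ C6 and 996 in CD8+ C4. Cycling clusters held 19.6 to 23.9% of CD4+ cells in saline and 30.8 to 34.5% at CSA 50 mg/kg, and 52.2 to 54.0% and 38.4 to 52.3% of CD8+ cells. They held 70.2 to 74.3% of CD4+ Lmnb1 UMIs in saline and 86.4 to 88.8% at CSA 50 mg/kg.

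Outside the cycling clusters Lmnb1 fell in CD4+ cells, from 126, 128 and 124 CPM in saline through 107, 126 and 125 at CSA 5 mg/kg to 64.4, 65.9 and 72.4 at CSA 50 mg/kg. All high-dose pools lay below all others, and the change at that dose was −0.89 ± 0.07 (edgeR adjusted p = 1.33e-10; 65.7% of genes passed). In cycling CD4+ cells it went from 661, 633 and 646 to 570, 551 and 525 CPM, a change of −0.25 ± 0.05 (adjusted p = 2.94e-04; 62.9% passed). The non-cycling change was lower than the cycling one by −0.66 ± 0.08 (adjusted p = 5.83e-07), where 7.96% of genes passed. The mix of cycling clusters changed as well, with Cd226hi C6 at 443 cells in saline and 34 at CSA 50 mg/kg and Cd226lo C3 at 180 and 541. Within them, on unscaled CPM, Lmnb1 differed by −0.21 in C3, −0.01 in C6 and −0.85 in C5 on the log2 scale, beside the shift of −0.45 in the median of all CD4+ genes with library size, so the fitted cycling value is one over a changed mix. The C6 value rests on 2 high-dose pools that lay far apart, at 1098 and 664 CPM. The whole-lineage CD4+ value of −0.08 stood above both of its parts, beside the higher share of cycling cells.

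CD8+ cells had the same pattern. Outside the cycling clusters Lmnb1 stood at 155, 147 and 146 CPM in saline and 65.3, 68.7 and 62.7 at CSA 50 mg/kg, a change of −1.19 ± 0.08 (edgeR adjusted p = 3.79e-12; 65.3% passed). In cycling CD8+ cells the change was −0.44 ± 0.04 (adjusted p = 7.75e-09; 71.9% passed), and the difference between them was −0.74 ± 0.08 (adjusted p = 1.62e-08; 10.1% passed). The cycling mix changed here too, with Cd226hi C4 at 1015 cells in saline and 20 at CSA 50 mg/kg. Within the other cycling clusters Lmnb1 differed by −0.42 in C2 and −1.07 in C3, unscaled, beside an all-gene shift of −0.53. These splits by cycling were chosen after the data had been seen for the test of the difference. Within single non-cycling clusters, on unscaled CPM, Lmnb1 was lower at CSA 50 mg/kg in 8 of 8 CD4+ clusters (log2 −1.65 to −0.70) and 6 of 6 CD8+ clusters (−2.04 to −0.95). In Cd226lo effectors, for example, its pools lay at 106 to 130 in saline and 44.5 to 55.5 at CSA 50 mg/kg in CD4+ cells, and at 130 to 141 and 38.7 to 44.4 in CD8+ cells.

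A list of 10 cycling markers, among them Mki67, Top2a and Pclaf, moved with Lmnb1. Its summed level in non-cycling clusters other than the naive one went from a mean of 929 unscaled CPM in saline to 296 at CSA 50 mg/kg in CD4+ cells and from 1064 to 324 in CD8+ cells, and in cycling clusters from 6047 to 4394 and from 5643 to 3825. Its part in the Lmnb1 result was not tested.

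Lbr had another pattern. In CD8+ cells the fitted change was larger over cycling cells, from a mean of 437 ± 9.91 to 266 ± 14.1 CPM (SD, n = 3; −0.69 ± 0.05 on the log2 scale, edgeR adjusted p = 4.01e-11), than in non-cycling ones, from 185 ± 8.27 to 151 ± 8.35 CPM (−0.30 ± 0.06, adjusted p = 2.47e-04), and the difference was 0.40 ± 0.07 (adjusted p = 2.26e-04). Within cycling CD8+ clusters, unscaled, Lbr differed by −0.68 in C2 and −1.14 in C3, beside an all-gene shift of −0.53 with library size. In CD4+ cells the change was −0.43 ± 0.07 over cycling cells (adjusted p = 3.01e-06) and −0.21 ± 0.06 over non-cycling cells (adjusted p = 0.00236), with a difference of 0.21 ± 0.08 that did not pass (adjusted p = 0.152). Within cycling CD4+ clusters Lbr was not lower throughout, at 0.07 in C3, 0.37 in C6 and −0.77 in C5, unscaled, beside an all-gene shift of −0.45. The C6 value rests on 34 cells and 2 high-dose pools, at 697 and 885 CPM, beside 590 to 642 in saline. The part of the changed mix of clusters in these results was not tested. For Emd the non-cycling change less the cycling one was −0.24 in CD4+ (adjusted p = 0.242) and −0.11 in CD8+ cells (adjusted p = 0.583).

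**Figure D3:**
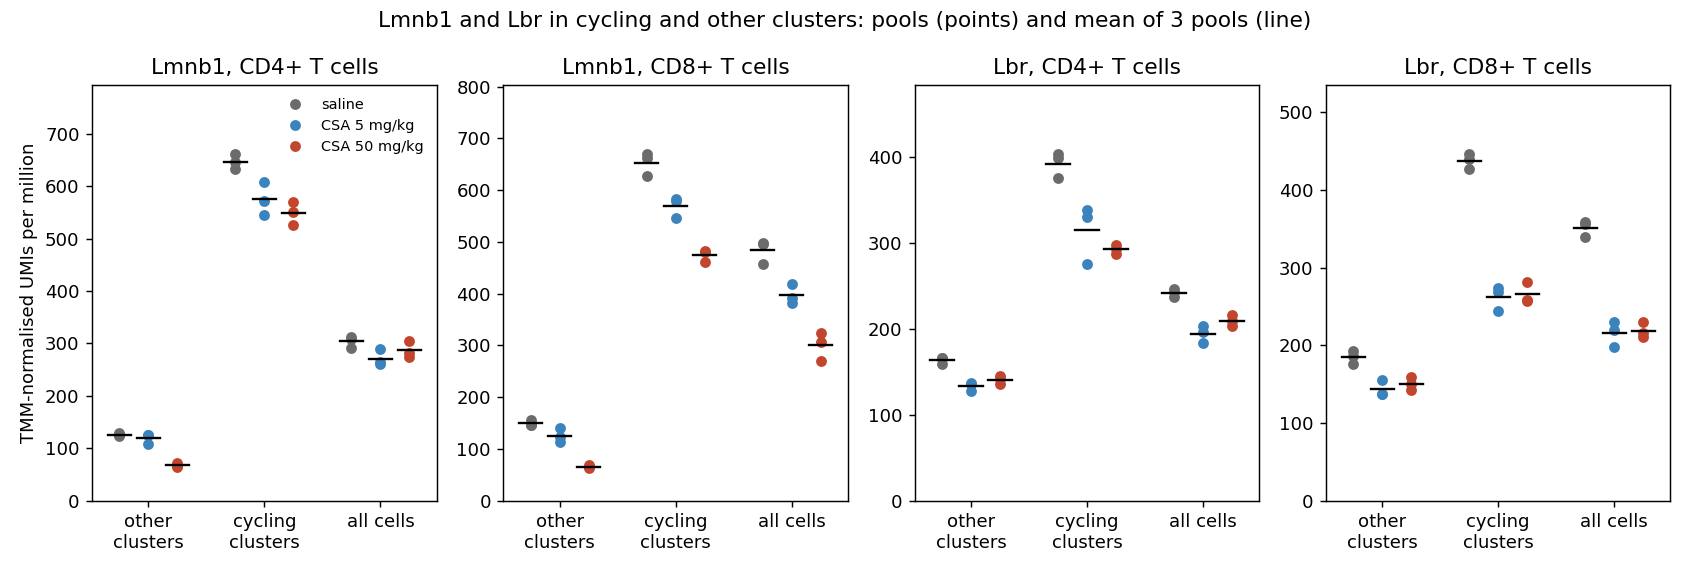
Lmnb1 and Lbr (y axis, TMM-scaled CPM) in cycling clusters, other clusters and all cells of each lineage (x axis), coloured by treatment; points are the 3 pools and short lines their means. Lmnb1 outside the cycling clusters ends at 62.7 to 72.4 at CSA 50 mg/kg in both lineages, and the Lbr mean in cycling CD8+ cells is 437 in saline and 262 at CSA 5 mg/kg.

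Clonal expansion gave a second contrast that the choice of members had not used: within each pool, cells whose T cell receptor clonotype had 2 or more cells were set against cells with a clonotype of their own. Lmnb1 was higher in expanded cells in 9 of 9 pools of each lineage, by 0.53 ± 0.04 on the log2 scale in CD4+ (edgeR with pool as a block, adjusted p = 6.91e-10) and 0.29 ± 0.03 in CD8+ cells (adjusted p = 1.72e-06). Among all genes 17.4% and 13.7% passed. Lbr was higher in 7 of 9 pools of each lineage, by 0.25 ± 0.05 (adjusted p = 4.94e-04) and 0.17 ± 0.04 (adjusted p = 0.00319). Emd passed in CD4+ cells (0.18 ± 0.05, adjusted p = 0.0139; higher in 8 of 9 pools) and not in CD8+ cells (0.08 ± 0.05, adjusted p = 0.34).

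Lmna was higher in expanded cells in 5 of 9 CD4+ pools and 4 of 9 CD8+ pools, with differences of 0.12 ± 0.09 (edgeR adjusted p = 0.422) and 0.06 ± 0.11 (adjusted p = 0.811). These differences rest mainly on the high-dose pools, and the other pools add little to the tallies. Expanded and single CD4+ cells held 855 and 2158 Lmna UMIs at CSA 50 mg/kg, but 5 and 23 in saline and 16 and 29 at CSA 5 mg/kg. In CD8+ cells the counts were 564 and 1518, then 11 and 29, then 9 and 39. At CSA 50 mg/kg the CD4+ Lmna level was 159, 227 and 176 CPM in expanded and 171, 193 and 165 CPM in single cells, which overlap. With expansion set at 3 or more cells the CD4+ difference was 0.37 ± 0.12 (adjusted p = 0.0392). Lmnb2 differed by 0.18 ± 0.16 and 0.15 ± 0.12 (adjusted p = 0.515 and 0.497). Expanded cells were more often in cycling clusters, at a median over pools of 41.6% against 22.8% in CD4+ and 65.3% against 46.7% in CD8+ cells. Among non-cycling cells no gene of the wider list passed in either lineage. Lmnb1 then differed by 0.10 in CD4+ (adjusted p = 0.629) and 0.26 in CD8+ cells (adjusted p = 0.108).

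The wider list holds the 5 members and 31 other genes of the nuclear envelope. At CSA 5 mg/kg 19 of the 31 passed in CD4+ cells (5 up, 14 down; median log2 change −0.10 against −0.01 over all genes) and 20 in CD8+ cells (6 up, 14 down; −0.35 against −0.0025). Of all genes 51.7% passed at that dose in CD4+ and 60.2% in CD8+ cells, with 25.6% and 30.3% on the lower side. At CSA 50 mg/kg 23 passed in CD4+ cells (8 up, 15 down; −0.25 against −0.01) and 25 in CD8+ cells (7 up, 18 down; −0.50 against 0.00097). In percent, 74.2% and 80.6% of the 31 passed at CSA 50 mg/kg, beside 70.5% and 74.0% of all genes; 48.4% and 58.1% passed on the lower side, beside 35.8% and 36.9%. Counts over all 36 genes, here and with library-size scaling, include Lmna wherever it passed, although it was picked for its dose change. The dose calls of Lmna are therefore not results. With all 36 genes the counts were 7 up and 16 down in both lineages at CSA 5 mg/kg, and 11 up and 16 down in CD4+ and 9 up and 20 down in CD8+ cells at CSA 50 mg/kg. Scaled by library size they were 1 up and 25 down, 1 up and 29 down, 4 up and 25 down, and 3 up and 28 down in that order (CD4+ then CD8+ at the lower dose, then at the higher). With that scaling all genes also passed mostly on the lower side, with 926 up and 5718 down, 1180 and 6270, 1599 and 6239, and 1690 and 6794.

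Genes of the LINC complex, which links the lamina to the cytoskeleton, passed only on the lower side at CSA 50 mg/kg, 2 of 5 in CD4+ cells (40%, near the 35.8% of all genes) and 5 of 5 in CD8+ cells, where 36.9% of all genes passed on that side. Syne1, a giant nesprin, stood at 47.5, 43.0 and 44.4 CPM in CD4+ saline pools and 20.2, 16.1 and 21.6 at CSA 50 mg/kg (−1.20 ± 0.10, edgeR adjusted p = 1.22e-09). All 3 nuclear basket genes fell in both lineages, beside the same 35.8% and 36.9% of all genes. Nup153, a nucleoporin that binds lamins, went from 106, 107 and 98.2 CPM to 45.4, 46.8 and 46.8 in CD4+ cells (−1.15 ± 0.06, adjusted p = 5.97e-13) and from 86.8, 86.5 and 82.4 to 40.3, 38.7 and 37.6 in CD8+ cells (−1.14 ± 0.06, adjusted p = 2.98e-12). In each case the groups were far apart.

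Among LEM domain genes and their partner, Ankle2 and Banf1 moved in opposite directions. Banf1 encodes BAF, which bridges DNA and LEM proteins as the nucleus reforms after mitosis, and Ankle2 a LEM protein that controls BAF phosphorylation. Banf1 rose in CD4+ cells from 244, 262 and 250 CPM in saline to 427, 420 and 402 at CSA 50 mg/kg (0.73 ± 0.04, edgeR adjusted p = 6.95e-13) and in CD8+ cells by 0.77 ± 0.04 (adjusted p = 1.50e-11). Ankle2 fell from 57.7, 54.8 and 50.4 to 23.8, 25.1 and 21.9 CPM in CD4+ cells (−1.19 ± 0.08, adjusted p = 4.67e-11) and by 1.53 ± 0.08 on the log2 scale in CD8+ cells (adjusted p = 3.28e-12). Both were also past the threshold at CSA 5 mg/kg, Banf1 at 0.52 and 0.72 and Ankle2 at −0.77 and −1.07 in CD4+ and CD8+ cells.

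Of the other list genes, Tor1a, which encodes torsin A of the perinuclear space, rose by 0.65 ± 0.08 in CD4+ and 0.76 ± 0.07 in CD8+ cells at CSA 50 mg/kg (edgeR adjusted p = 2.81e-07 and 1.18e-08) and passed with library-size scaling as well (0.22 and 0.23). Nrm, the gene of the inner membrane protein nurim, rose by 0.62 ± 0.06 in CD4+ cells (adjusted p = 2.57e-08). Rce1, a protease that trims prenylated proteins such as prelamin A, rose by 0.56 ± 0.07 in CD8+ cells (adjusted p = 1.78e-06) and by 0.39 ± 0.09 in CD4+ cells at CSA 5 mg/kg (adjusted p = 0.00154), but neither Rce1 value passed with library-size scaling (0.025 and 0.032). Cbx5, which encodes the heterochromatin protein HP1 alpha, a partner of the lamin B receptor, fell in CD8+ cells from 117, 126 and 118 CPM in saline to 40.3, 39.7 and 39.8 at CSA 50 mg/kg (−1.60 ± 0.06, adjusted p = 5.15e-14), with 80.8, 78.6 and 88.9 at CSA 5 mg/kg. Cbx1, its paralog, rose at CSA 5 mg/kg in CD8+ cells (0.32 ± 0.06, adjusted p = 1.63e-04; −0.10 with library-size scaling, not passing), while Syne3 fell there (−0.91 ± 0.11, adjusted p = 7.71e-07).

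**Figure D4:**
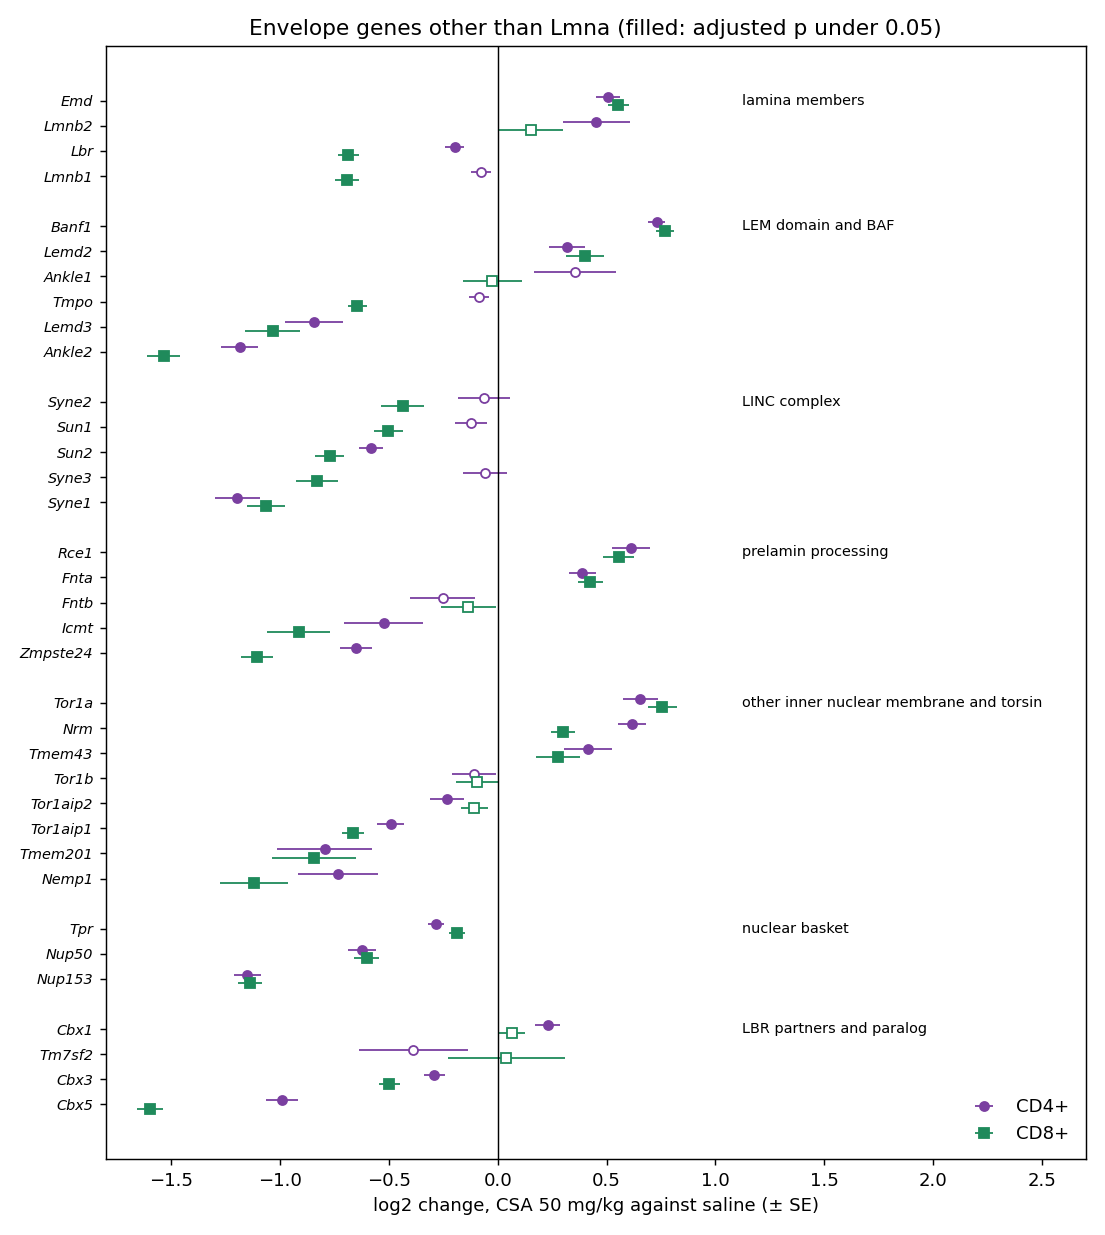
Log2 change at CSA 50 mg/kg against saline (x axis; error bars are SE) of the lamina and envelope genes other than Lmna, grouped by role, in CD4+ cells (circles) and CD8+ cells (squares); filled symbols passed an adjusted p of 0.05. The LINC and nuclear basket genes that passed lie below 0, and Banf1 and Tor1a lie above it in both lineages.

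The list was also counted in the other contrasts. Of the 36 genes 19 (52.8%) passed between lineages in saline, beside 40.1% of all genes, and 16 of them were higher in CD8+ cells (median 0.16 against 0.02 over all genes). For the difference of the CSA 50 mg/kg changes 12 (33.3%) passed, beside 19.3%, all lower in CD8+ cells (−0.21 against −0.02). In expanded against single clonotypes 11 (30.6%) passed in CD4+ cells, all higher, beside 17.4%, and 9 (25%) in CD8+ cells, 7 of them higher, beside 13.7%. For the non-cycling less the cycling change, 4 (11.1%) passed in CD4+ cells, near the 7.96% of all genes, and 9 (25%) in CD8+ cells, beside 10.1%.

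The genes whose level ran most like that of Lmna over clusters at CSA 50 mg/kg were found among 5056 genes by Pearson's r over 12 CD4+ and 8 CD8+ clusters, ranked by the smaller r. They were Adap1 (r = 0.87 and 0.89), Anxa2 (0.85 and 0.86), Lpgat1 (0.84 and 0.89), Ybx3 (0.84 and 0.86) and Rnpep (0.83 and 0.83). Clusters share libraries and differ in depth, so these are descriptions. Between saline and CSA 50 mg/kg these genes differed much less than Lmna, with Anxa2, which encodes a calcium-dependent membrane-binding protein, at log2 changes of 1.29 and 1.05 and Adap1 at 0.21 and −0.23 in CD4+ and CD8+ cells. Among the members, r with Lmna over these clusters was 0.69 and 0.55 for Emd, 0.30 and 0.41 for Lmnb1, 0.18 and 0.13 for Lbr, and −0.04 and 0.14 for Lmnb2.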

How the data were processed

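The submitters' processing notes name Cell Ranger, Seurat 3.0.0 and the genome build mm10; the annotation release is not given in the sources used here. The deposited counts are raw UMI counts per gene and cell, 18029 genes in 21204 cells, in 1 table for both lineages. The deposited per-cell tables, 1 per lineage, give hashtag pool, cluster, clonotype, the TEa mark and a mitochondrial fraction made by the authors. How doublets were treated was not examined here. Deposited CD8+ cluster numbers were matched to the study's cluster names by their numbers of cells. Counts were summed over cells per pool (3 pools in each of 3 groups), TEa cells apart, and tested with edgeR 4.0.16 in R 4.3.3 (filterByExpr, TMM, quasi-likelihood test, all 9 pools in 1 fit with 6 residual degrees of freedom) with Benjamini-Hochberg adjustment over all genes tested and a threshold of 0.05. Contrasts within pools had pool as a block. The steps were tested on simulated data. The pools shared a capture per group, so p-values measure the spread between pairs of mice within 1 capture. Alternatives were DESeq2 1.42.0, library-size scaling, no filter, only the groups compared, a hashtag block, subsets of cells, thinning to 2000 UMIs and leaving out each pool. The non-cycling less cycling change, non-cycling cells without the naive cluster, and a sum of 5 B cell genes were chosen after seeing the data. The members and lists were chosen with earlier results of these data known. Named genes of the wider list passed the threshold and averaged 20 CPM or more, at most the 3 highest and 3 lowest changes per lineage and dose. Exceptions were made where a count of 5 or fewer was spelled out and for the flagged differences between lineages, which are all named. Clusters entered cluster levels with at least 10 cells in a pool, and TEa pools the test with at least 5. Promoter sequences are from a RefSeq GRCm38.p6 table matched by symbol. Some marker lists are not reported here.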

Additional observations from a re-analysis of the deposited data

Results flagged for a closer look

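Of the 36 lamina and envelope genes, 12 had a CSA 50 mg/kg change that differed between the lineages in the edgeR test of the difference itself (CD8+ change less CD4+ change, log2, with pool as a block), and all were lower in CD8+ cells. Over all genes 2158 of 11177, or 19.3%, passed this test. The differences were −0.65 for Lmnb1 and −0.52 for Lbr among the members, and −0.64 for Cbx5 and −0.24 for Cbx3, both of which encode HP1 proteins. Of the LINC complex they were −0.80 for Syne3, −0.41 for Syne2, −0.41 for Sun1 and −0.22 for Sun2. The remaining ones were −0.59 for Tmpo, −0.48 for the prelamin protease gene Zmpste24, −0.38 for Ankle2 and −0.35 for Nrm. With DESeq2 4 of the 36 passed, and 722 of the 11177. The share of cells in cycling clusters was 19.6 to 23.9% in saline and 30.8 to 34.5% at CSA 50 mg/kg in CD4+ pools, and 52.2 to 54.0% and 38.4 to 52.3% in CD8+ pools; its part in these differences was not tested.

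Between cells outside and inside the cycling clusters, the CSA 50 mg/kg change of Lmnb1 differed by −0.66 in CD4+ and −0.74 in CD8+ cells, and that of Lbr by 0.40 in CD8+ cells (non-cycling less cycling). These comparisons were added after the data had been seen. Groups of 3 pools were not tested for single pools that stand apart.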

How the results depend on the processing

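Counts below are of the 36 listed genes that passed. They include Lmna wherever it passed, although it was picked for its dose change, so its dose calls are not results. Leaving out each pool in turn moved none by over 1.5 times: 19 to 23 (main 23) at CSA 5 mg/kg and 25 to 28 (27) at CSA 50 mg/kg in CD4+ cells, 22 to 25 (23) and 28 to 29 (29) in CD8+ cells, 14 to 19 (19) between lineages in saline, 9 to 11 (12) for the difference of changes, 10 to 13 (11) and 7 to 10 (9) for expanded cells, and 3 to 5 (4, Lmna among them) in TEa cells. Counts that moved further were 13 for CD4+ cells at CSA 5 mg/kg thinned to 2000 UMIs, 9 in TEa cells with library-size scaling, 0 in both expanded contrasts outside the cycling clusters, where 501 (CD4+) and 195 (CD8+) of all genes passed, and, with DESeq2, 8 between lineages, 4 for the difference of changes, and 7 and 4 for expanded cells. Over all genes DESeq2 called 2108 against 4483 between lineages, 722 against 2158 for the difference of changes, 1032 against 1724 and 689 against 1379 for expanded cells, and 347 against 588 in TEa cells. Thinned CD4+ cells at CSA 5 mg/kg had 3858 of 9414 genes passing, against 5467 of 10568 in the main test. TEa cells with library-size scaling had 775 against 588. The causes were not tested.

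Values that changed sign were Emd at CSA 5 mg/kg with library-size scaling (−0.040 in CD4+ and −0.075 in CD8+ cells), Lmnb2 in CD8+ cells at CSA 50 mg/kg with the same scaling (−0.38, adjusted p = 0.0258), Tor1a (−0.056) and Cbx1 (−0.10) in CD8+ cells at CSA 5 mg/kg with that scaling, and Lbr in expanded cells outside the cycling clusters (−0.030 and −0.0044). Lmnb1 in TEa cells passed without CSA 50 mg/kg replicate 1 (−0.91, adjusted p = 0.0447). Emd in expanded CD4+ cells no longer passed with DESeq2 or with no filter. Of the values of members and named genes under alternatives other than leaving out a pool, 438 kept direction and side of the threshold (for Lmna, moved by less than the SE), 24 no longer passed, 7 newly passed, 12 Lmna values moved by more than the SE and 7 changed sign.

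Pools of different groups shared only a hashtag number. Deviations of same-numbered pools correlated at −0.07 to 0.01 in CD4+ cells and −0.06 to 0.17 in CD8+ cells, with 1 of 9 CD8+ pairs over 0.1. With the number as a replicate block the counts were 23 and 27 in CD4+ and 24 and 29 in CD8+ cells. Depth limits Lmna outside CSA 50 mg/kg and Lmnb2 throughout.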
